A study of Homo sapiens with 3 samples.

Results

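The 10 genes described here encode the subunits that are exchanged when the BAF complex of neural progenitors becomes the BAF complex of neurons, together with its ATPases. BAF complexes, the mammalian SWI/SNF chromatin remodellers, use ATP to slide or evict nucleosomes and so open DNA to other factors. As progenitors leave the cell cycle, the actin-related subunit ACTL6A gives way to ACTL6B, the PHD-finger subunits PHF10 and DPF2 to DPF1 and DPF3, and SS18 to SS18L1. The exchange is known as part of the switch from proliferation to dendrite growth. SMARCA4 and SMARCA2 are the alternative ATPases around which the other subunits assemble.

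Accessible chromatin was mapped by ATAC-seq, in which the Tn5 transposase cuts and tags open DNA, in neurons of KOLF2.1J-hNGN2, a line of the established human induced pluripotent stem cell line KOLF2.1J made for neuronal differentiation with NGN2. All 3 biological replicates were taken at day 14 of differentiation from 100000 harvested cells each, and form 1 group with no untreated, progenitor or undifferentiated sample. The authors deposited 1 list for the pooled replicates, so no value per replicate was analysed here, no standard deviation can be given, and the subunit classes are set side by side without a test. A region open in a few cells and a region weakly open in all cells cannot be told apart in such a list.

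Members of the set were all intervals of the list with a summit inside the RefSeq GRCh38 body of 1 of the 10 genes or within 50 kb of its outer ends. Intervals with the same bounds were counted as 1 region, described by the summit with the highest −log10 p. This gave 64 of the 65234 distinct regions of the list, or 178 of its 145092 summit entries. The progenitor subunit genes (ACTL6A, PHF10, DPF2, SS18) held 16, the neuronal ones (ACTL6B, DPF1, DPF3, SS18L1) 30 and the ATPase genes 18. At the edge of the window, the region at 49.5 kb from ACTL6B (fold enrichment 14.1) was counted and the one at 50.3 kb from ACTL6A (fold enrichment 4.40) was not. Fold enrichment is the authors' ratio of the tags at a summit to a local background, and the number of tags at each summit was recovered from that ratio and its p-value. The list ran from 58 to 3783 tags per summit, with a median of 238 over regions. Of the markers used to check the labelled cell type, 9 of 10 pan-neuronal genes had a region at a start. The same held for 1 of 4 glutamatergic, 3 of 4 GABAergic, 5 of 5 progenitor, 2 of 4 pluripotency and 3 of 5 glial genes. The marker genes without a region were ELAVL4 (pan-neuronal), NEUROD2, SLC17A7 and TBR1 (glutamatergic), GAD1 (GABAergic), POU5F1 and NANOG (pluripotency), and AIF1 and GFAP (glial). Over all 20037 protein-coding genes the share was 68.4%, so counts of so few genes say little about cell identity. Median tags were 731 at the pan-neuronal starts with a region and 856 at the progenitor ones.

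The promoters of the exchanged subunits are shown first, because the regions that all of them carried lie over these sequences. Each line gives the 250 bases before the first RefSeq start (GRCh38.p14), read 5′ to 3′ in the direction of the gene. RefSeq promoter sequences were matched for 9 of the 10 genes, all but ACTL6A. Capitals mark matches on either strand to 3 of the words searched for: the CCAAT box, named by its letters, the GC box GGGCGG, and the E-box that reads CAGCTG on both strands.
PHF10 (chr6:169724501-169724750, minus strand): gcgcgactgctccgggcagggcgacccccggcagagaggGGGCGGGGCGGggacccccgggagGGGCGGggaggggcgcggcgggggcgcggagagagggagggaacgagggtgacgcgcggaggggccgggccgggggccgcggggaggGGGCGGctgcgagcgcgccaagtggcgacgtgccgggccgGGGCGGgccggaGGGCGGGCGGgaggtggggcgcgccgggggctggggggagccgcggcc
DPF2 (chr11:65333602-65333851, plus strand): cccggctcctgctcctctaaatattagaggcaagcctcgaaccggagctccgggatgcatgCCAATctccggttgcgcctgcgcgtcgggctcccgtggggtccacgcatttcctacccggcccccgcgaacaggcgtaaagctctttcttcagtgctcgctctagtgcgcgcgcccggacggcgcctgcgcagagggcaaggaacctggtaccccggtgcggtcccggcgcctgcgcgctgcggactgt
SS18 (chr18:26091220-26091469, minus strand): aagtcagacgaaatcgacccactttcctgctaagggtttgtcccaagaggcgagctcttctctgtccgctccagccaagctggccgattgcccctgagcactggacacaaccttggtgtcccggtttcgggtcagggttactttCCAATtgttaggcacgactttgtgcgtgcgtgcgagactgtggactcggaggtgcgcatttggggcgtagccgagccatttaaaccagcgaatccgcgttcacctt
ACTL6B (chr7:100656449-100656698, minus strand): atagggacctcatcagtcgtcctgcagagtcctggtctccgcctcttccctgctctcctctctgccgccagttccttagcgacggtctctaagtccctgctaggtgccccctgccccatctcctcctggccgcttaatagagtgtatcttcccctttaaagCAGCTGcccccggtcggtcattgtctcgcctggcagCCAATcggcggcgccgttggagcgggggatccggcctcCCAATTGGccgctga
DPF1 (chr19:38229696-38229945, minus strand): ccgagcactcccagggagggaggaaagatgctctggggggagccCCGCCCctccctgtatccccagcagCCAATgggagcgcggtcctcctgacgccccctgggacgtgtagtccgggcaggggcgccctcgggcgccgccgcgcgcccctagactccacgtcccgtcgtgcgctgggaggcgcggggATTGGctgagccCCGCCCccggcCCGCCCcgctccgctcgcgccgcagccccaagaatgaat
DPF3 (chr14:72894102-72894351, minus strand): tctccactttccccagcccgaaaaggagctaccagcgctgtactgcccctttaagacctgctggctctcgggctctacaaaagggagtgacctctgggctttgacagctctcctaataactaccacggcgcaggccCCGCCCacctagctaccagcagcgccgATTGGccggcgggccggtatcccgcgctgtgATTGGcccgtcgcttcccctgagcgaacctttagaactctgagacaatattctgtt
SS18L1 (chr20:62143519-62143768, plus strand): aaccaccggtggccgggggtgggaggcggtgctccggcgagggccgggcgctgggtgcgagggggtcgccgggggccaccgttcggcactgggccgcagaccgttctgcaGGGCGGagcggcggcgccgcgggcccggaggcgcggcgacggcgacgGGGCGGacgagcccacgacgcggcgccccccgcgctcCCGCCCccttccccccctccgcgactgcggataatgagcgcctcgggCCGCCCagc
The promoters of PHF10 and SS18L1 were the richest in CpG among these 7, with 47 and 49 CpG dinucleotides in 300 bases (250 before and 50 after the start). Those of DPF3, SS18 and ACTL6B had 18, 21 and 22. Over 22199 listed starts of coding genes the median was 21.

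A CCAAT word was present in the 300 bases of ACTL6B, DPF1, DPF3, DPF2 and SS18, that is 5 of 9 genes, against 34.7% of all such windows. The GC box was found in 7 of 9, against 56.3% of all windows and 70.7% of those with an accessible region at the start. All 4 neuronal subunit genes held a GC box, as did both ATPase genes. Of the first starts of the 3 progenitor genes with a sequence only that of PHF10 did, with 7 matches, of which 2 pairs overlap. The second start of SS18, in the same accessible region as its first, also held a match, 95 to 90 bases before it. The ACTL6B promoter held 3 CCAAT matches, 2 of which overlap on opposite strands, and the E-box CAGCTG 89 to 84 bases before the start, a word present in 4001 of 22199 windows. DPF2 held the YY1 motif at bases 33 to 43 after its start, found in 1.18% of windows. SS18 held the E-box CAGATG at bases 27 to 32 after its start, found in 12.2%, and in 8.95% of those with an accessible start. The TATA box TATAAA was in none of the 9 windows, in 9.47% of all windows and in 5.39% of those with an accessible start, as all 9 had. Nor did any of the 9 hold the CREB word TGACGTCA (2.26% of all), the ETS word CCGGAAGT (5.34%) or the NRF1 motif (333 of 22199). For these words the shares at accessible starts were higher, at 3.0%, 7.63% and 2.13%. The left and right parts of the RE1 element, searched as TTCAGCACC and as GGACAGCG, were likewise in none of the 9, against 0.351% and 1.96% of all. Both strands were searched, and a match is a run of letters, not a measured binding site.

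Every one of the 10 genes had an accessible region at its start, the progenitor subunits no less than the neuronal ones. A region was counted there if the strongest of its summits was no more than 1 kb from a listed start, or, for genes with no listed start such as ACTL6A, within 1 kb of either outer end. By this measure 68.4% of 20037 protein-coding genes had one, and 71.2% of the 15842 with a listed start. The median fold enrichment at the 10 starts was 11.2, against 10.6 over the 13709 coding genes with such a region. The median tag count was 1290 against 966. No contrast between samples underlies these values.

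**Figure D1:**
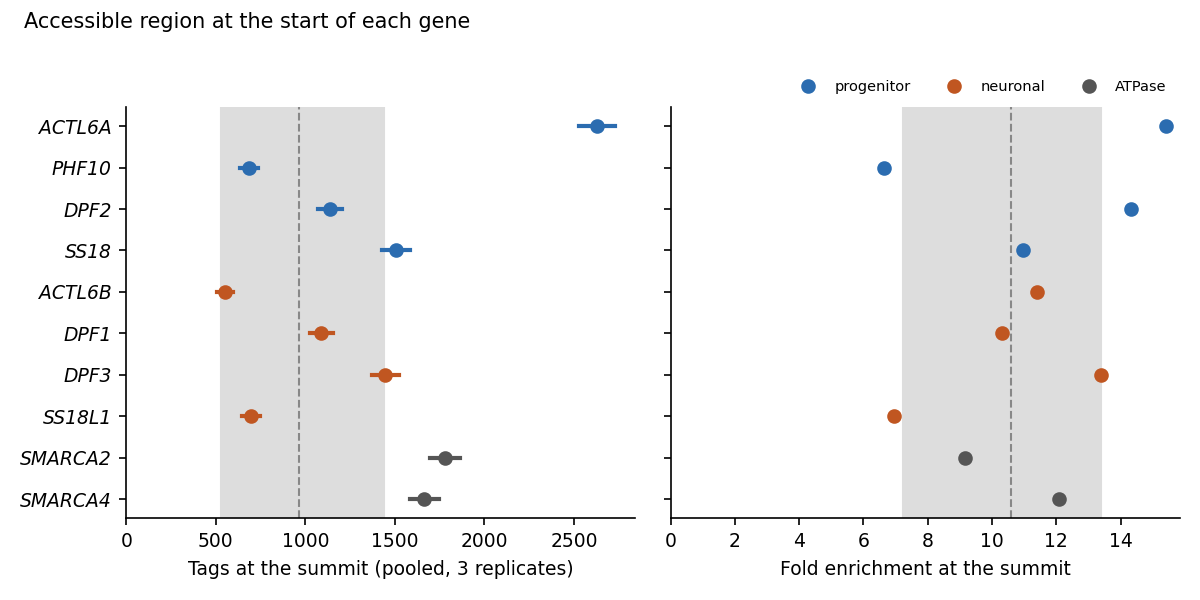
Tags (left, with exact Poisson 95% intervals) and fold enrichment (right) at the summit of the region at the start of each gene, pooled over 3 replicates and coloured by subunit class. The grey band and dashed line are the quartiles and median over 13709 coding genes. ACTL6A lies far above the band in tags, at 2630, and ACTL6B near its lower edge, at 549.

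The actin-related pair had the largest ratio of tags among the 7 pairs compared, but not of fold enrichment. ACTL6A, the subunit of dividing progenitors, carried a region of 1200 bp at its lower-coordinate end (chr3:179562549-179563748), with 2630 tags at the summit (exact Poisson 95% interval 2530 to 2732) and a fold enrichment of 15.4. This was percentile 98.3 by tags and 90.6 by fold enrichment among regions at coding starts. ACTL6B, the neuron-specific counterpart, carried one of 1243 bp over its start (chr7:100655581-100656823), with 549 tags (504 to 597) and a fold enrichment of 11.4, at percentiles 26.0 and 56.5. ACTL6A thus had 4.79 times the tags of ACTL6B (exact binomial 95% interval 4.37 to 5.26), but 1.35 times its fold enrichment. The local background was 169.8 tags at ACTL6A and 47.2 at ACTL6B. These intervals cover counting error only, since PCR copies are not independent molecules and replicates could not be separated. The region at ACTL6B also covers the start of LOC105375429 and cannot be assigned to 1 of them.

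Among the PHD-finger genes the order did not follow subunit class. DPF3, a neuronal subunit, had the most tags of the 4, at 1445 (1371 to 1521), with a fold enrichment of 13.4 in a region of 1827 bp (chr14:72893064-72894890). DPF2, of progenitors and most other cells, had 1135 (1070 to 1203) and the highest fold enrichment of the 4, 14.3 (chr11:65333367-65334588). DPF1, a neuronal subunit, had 1090 (1026 to 1157) and a fold enrichment of 10.3 (chr19:38229168-38230225). The tag ratio of DPF2 to DPF1 was 1.04, with an interval of 0.957 to 1.13 that includes equality. PHF10, the progenitor subunit, was lowest at 685 (635 to 738) and 6.63, in a region of 2171 bp (chr6:169723413-169725583). DPF3 had 1.27 times the tags of DPF2 (1.18 to 1.38) and 2.11 times those of PHF10 (1.92 to 2.31).

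SS18, the progenitor member of its pair, had 1505 tags (1430 to 1583) and a fold enrichment of 11.0 in a region of 1829 bp (chr18:26089614-26091442). SS18L1, a calcium-responsive coactivator that takes its place in neurons, had 695 (644 to 749) and 6.94 in a region of 2064 bp (chr20:62142562-62144625). SS18 had 2.17 times the tags of SS18L1 (1.98 to 2.37). An outer end of PSMA7, a proteasome subunit gene, lies 19 bp from the SS18L1 summit used here, so that region too cannot be assigned to 1 gene. That summit was 356 bp before the SS18L1 start. A weaker one of the same region, 20 bp before that start, had 501 tags and a fold enrichment of 5.04.

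The ATPases were close to each other. SMARCA2 had 1780 tags (1698 to 1865) with a fold enrichment of 9.15 at its first start (chr9:2014634-2015668), and SMARCA4 had 1664 (1585 to 1746) with 12.1 (chr19:10960220-10961688). The tag ratio of SMARCA2 to SMARCA4 was 1.07 (1.0 to 1.14), while fold enrichment had the opposite order. Both stood above percentile 80 by tags, at 86.5 and 83.1, but at 38.7 and 62.7 by fold enrichment. The local background was 193.7 tags at SMARCA2 and 136.8 at SMARCA4.

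Set side by side, the progenitor subunit genes had a median of 1320 tags (range 685 to 2630) and the neuronal ones 892.5 (549 to 1445). The medians of fold enrichment were 12.6 (6.63 to 15.4) and 10.9 (6.94 to 13.4), a log2 ratio of neuronal to progenitor of -0.22. The ranges overlapped on both measures. Without ACTL6A, or without DPF2, the log2 ratio was -0.01. All 5 progenitor marker genes also had an accessible start, as did 68.4% of coding genes, and the part of progenitor cells in these values was not tested.

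Regions at the starts differed in width and number of summits. The strongest summit lay within 356 bp of a listed start (ACTL6A: of its lower-coordinate end) in every one of the 10 genes, and 28 bp away in ACTL6B, the nearest. The median distance was 163 bp, against 76 bp over coding genes (quartiles 37 and 174). DPF1 had a single summit, 141 bp before its start. PHF10 and SS18L1 had 7 each, at percentile 98.3 among coding starts by number, in the widest regions of the 10 (percentiles 96.9 and 95.1). Their tags were spread out. In PHF10 the 7 summits ran from 951 bp before to 802 bp after the start with 262 to 685 tags, and in SS18L1 from 1030 bp before to 741 bp after with 186 to 695. ACTL6A, in contrast, fell from 2630 tags at its main summit to 1043 and 516 at the other 2. PHF10 and SS18L1 were also the lowest of the 10 by fold enrichment. Their promoters had 47 and 49 CpG dinucleotides. The first start of SMARCA4 had 55, with a fold enrichment of 12.1 and a width of 1469 bp. A relation of CpG to width or strength was not tested.

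**Figure D2:**
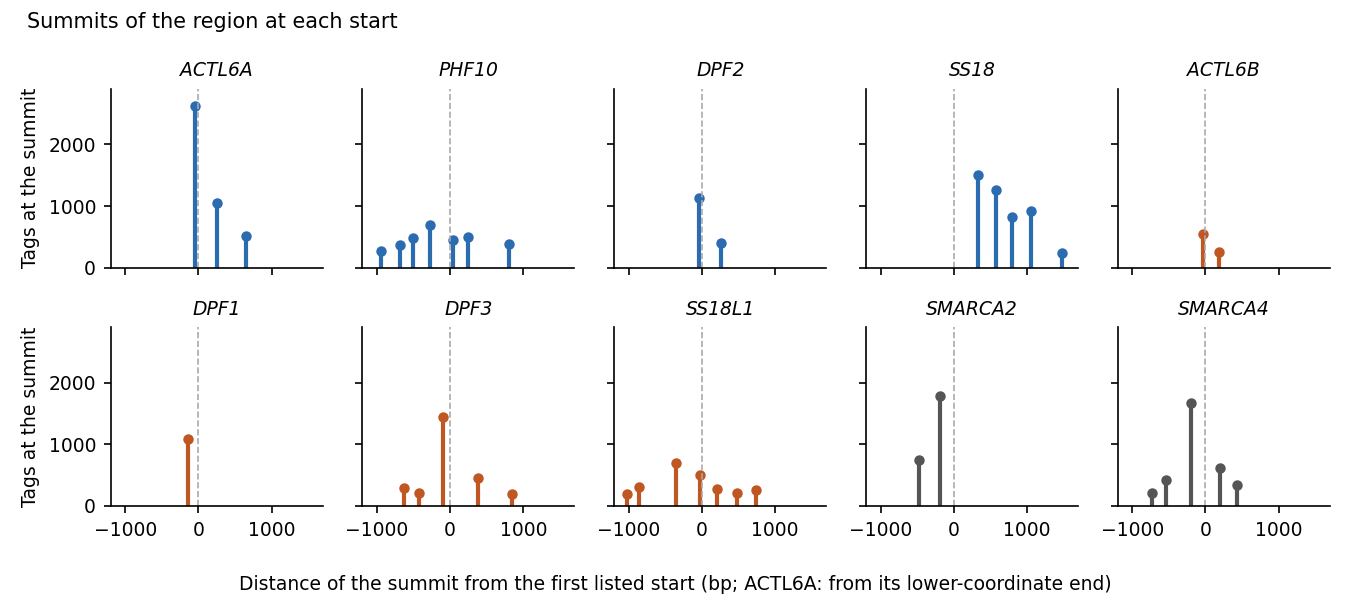
Tags at each summit (vertical axis) against its distance in bp from the first listed start (horizontal axis; for ACTL6A, from its lower-coordinate end), with 1 panel per gene. PHF10 and SS18L1 show 7 low summits each, ACTL6A and DPF3 a tall one beside lower ones, and the 5 of SS18 all lie after its first start.

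SS18, DPF3, SMARCA2 and SMARCA4 have more than 1 start in the table, and these were not all accessible. The 2 starts of SS18 are 606 bp apart and lie in the same region. The strongest summit, with 1505 tags, was 328 bp after the first and 278 bp before the second. The second start of DPF3, 1452 bp after the first, was outside any region. It was 1.6 kb from the strongest summit of the region at the first start and 602 bp from a weaker summit of it, with 188 tags. Of further starts more than 2 kb from the first, 46.4% of the 3101 in coding genes had a region's strongest summit within 1 kb (49.2% counting any summit), and in these genes 2 of 4 did by either rule. Both were in SMARCA2, which has long transcripts and short ones that begin deep inside the gene. Its starts 3 and 4, 142.3 and 143.1 kb from the first, lay in 1 region of 1656 bp (chr9:2157360-2159015) with 469 tags and a fold enrichment of 6.18, its summit 15 bp from start 4. The second start of SMARCA2, 6.6 kb from the first, and that of SMARCA4, 23.1 kb from the first, were 3.9 and 22.7 kb from the nearest summit of any strength.

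The 250 bases before 3 of the 4 listed starts of SMARCA2 are printed to set accessible starts of 1 gene beside a start with no summit within 1 kb. Capitals mark the GC box before the first start, and a reversed TATA box and a reversed E-box of the letters CAGATG before the second.
SMARCA2 start 1, accessible (chr9:2015097-2015346, plus strand): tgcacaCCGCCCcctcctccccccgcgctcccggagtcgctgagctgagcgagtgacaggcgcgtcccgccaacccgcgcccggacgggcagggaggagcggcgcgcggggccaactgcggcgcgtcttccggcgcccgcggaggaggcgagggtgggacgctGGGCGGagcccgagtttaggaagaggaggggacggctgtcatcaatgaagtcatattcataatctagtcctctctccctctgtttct
SMARCA2 start 2, no summit within 1 kb (chr9:2021695-2021944, plus strand): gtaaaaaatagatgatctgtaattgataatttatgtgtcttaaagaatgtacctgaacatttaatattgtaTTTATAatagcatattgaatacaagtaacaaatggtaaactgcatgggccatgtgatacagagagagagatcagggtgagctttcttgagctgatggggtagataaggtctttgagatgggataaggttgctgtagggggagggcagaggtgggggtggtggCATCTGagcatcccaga
SMARCA2 start 4, accessible (chr9:2158214-2158463, plus strand): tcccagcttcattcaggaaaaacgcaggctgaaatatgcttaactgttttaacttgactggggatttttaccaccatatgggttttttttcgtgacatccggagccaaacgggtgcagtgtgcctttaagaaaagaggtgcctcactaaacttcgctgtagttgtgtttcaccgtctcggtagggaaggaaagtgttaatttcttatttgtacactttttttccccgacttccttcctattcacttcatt
Start 1 had 30 CpG dinucleotides in 300 bases and 66.7% GC, start 2 had 3 and 43.0%, and start 4 had 9 and 43.0%. Start 3, accessible but not printed, had 4 and 48.7%. Accessible start 4 thus had the same GC content as start 2, which was not accessible. Among all listed starts of coding genes, those with a region's strongest summit within 1 kb, called accessible here, had a median of 27 CpG (quartiles 18 and 35) and the others 5 (2 and 12). Start 4 was therefore below the lower quartile of accessible starts, and start 3, with 4, lower still. The second start of SMARCA4 had 5 CpG against 55 at its accessible first start. The second start of DPF3, counted among the others because only a weaker summit lay within 1 kb, had 21 CpG against 18 at its first start.

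**Figure D3:**
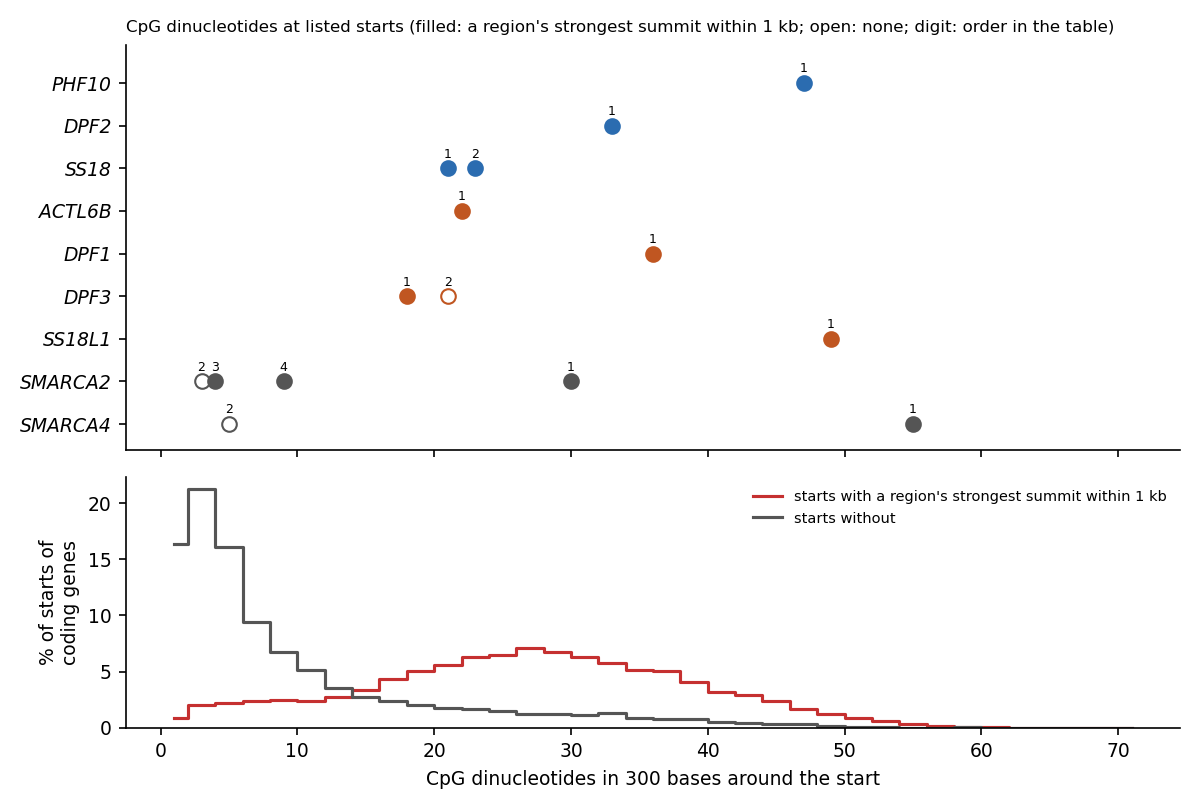
CpG dinucleotides in 300 bases around each listed start (horizontal axis) of the 9 genes with a RefSeq promoter (upper panel; filled, a region's strongest summit within 1 kb; open, none), and their distribution over 14787 accessible and 7412 other starts of coding genes (lower panel, percent of starts). SMARCA2 starts 3 and 4 are accessible at 4 and 9 CpG, below the lower quartile of accessible starts, 18.

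Across whole loci, regions at starts included, the neuronal subunit genes had a higher median count than the progenitor ones. Loci of the progenitor genes held 3 (ACTL6A), 4 (PHF10), 7 (DPF2) and 2 (SS18) regions, and those of the neuronal genes 10 (ACTL6B), 8 (DPF1), 6 (DPF3) and 6 (SS18L1). The medians were 3.5 and 7, against 5 over all coding genes (quartiles 3 and 7). The ranges, 2 to 7 and 6 to 10, overlapped through DPF2 alone. Leaving out regions at any start, the medians were 1 and 4, against 2 over all coding genes, with ranges of 1 to 3 and 1 to 6. ACTL6B had 4 such regions, DPF1 had 6 and DPF3 had 4, whereas SS18L1 had 1, as did ACTL6A, PHF10 and SS18. Against genes of similar length these counts put ACTL6B and DPF1 at percentiles 82.6 and 94.6, but DPF3 and SS18L1 at 20.1 and 23.4, within the 17.5 to 67.9 of the progenitor genes. Among regions above the list's median fold enrichment the medians did not differ: 3, 4, 5 and 2 were left in the progenitor loci and 7, 3, 4 and 3 in the neuronal ones.

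**Figure D4:**
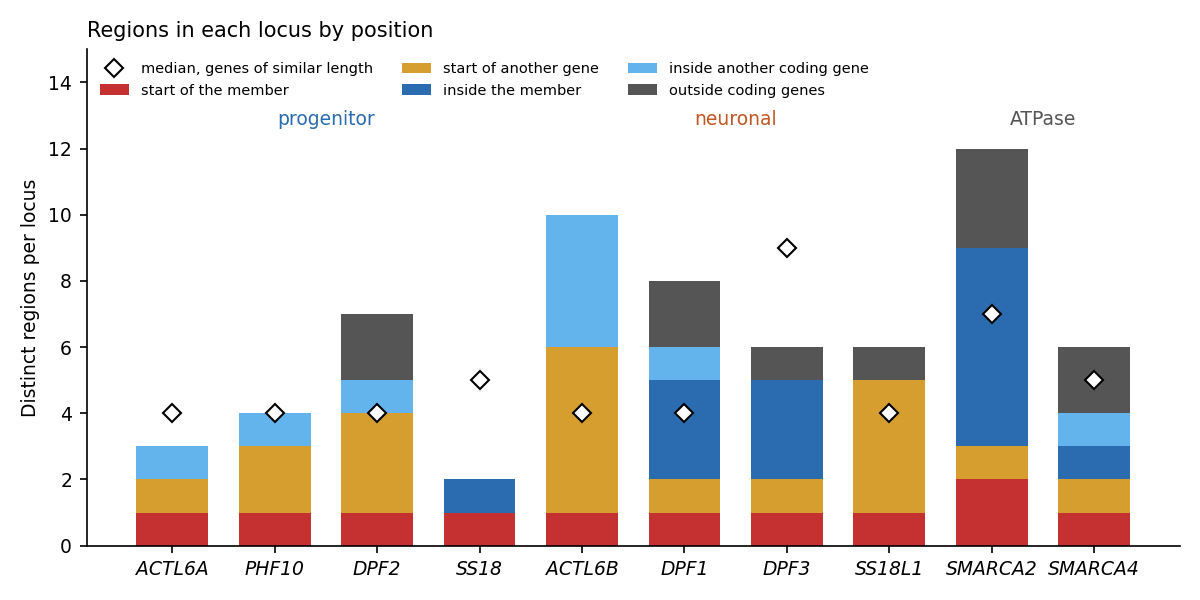
Distinct regions within 50 kb of each gene, stacked by position, with the median of coding genes within 20% of its length as a diamond. ACTL6B, DPF1, SS18L1, DPF2, SMARCA2 and SMARCA4 lie above their diamond, PHF10 on it, and ACTL6A, SS18 and DPF3 below. For genes with no listed start, either outer end was used as a start.

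The counts are set here beside gene length and neighbouring genes, and the part of neighbours in them was not tested. Against genes within 20% of its length, ACTL6B stood at percentile 96.1. Its window overlaps 7 other coding genes, and 5 of its 10 regions lay at other starts and 4 inside TFR2, GNB2 and GIGYF1. None lay inside ACTL6B away from its start. SS18L1 was similar, with 4 of 6 regions at a start or end of PSMA7, LSM14B, MTG2 or HRH3 and none inside the gene. SS18 stood at percentile 9.98 of 1669 genes, with 1 other coding gene in its window. DPF3, the longest of the 10 at 285.1 kb, had 6 regions where genes of its length had a median of 9 (percentile 23.2).

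DPF1 had many regions for its length. It spans 18.7 kb and held 3 regions inside its body away from starts, where 2007 genes of similar length had a median of 0 (percentile 99.6). The strongest of these, chr19:38223955-38224791, lay 5.4 kb after the start with 607 tags and a fold enrichment of 7.32. The others, 1.1 and 15.7 kb after the start, had 269 and 315 tags and fold enrichments of 2.18 and 3.19. These were percentiles 0.34 and 7.06 of all regions by fold enrichment but 55.9 and 62.7 by tags. The one at 1.1 kb lay only just beyond the 1 kb limit for a start, so the count of 3 and its percentile rest on that limit. A further region of 1855 bp with 6 summits (chr19:38209648-38211502) lay across the far end of DPF1, with 774 tags and a fold enrichment of 7.90. It was at no listed start, and the nearest other coding gene, SIPA1L3, lay 2409 bp from its summit. The local background of the 3 regions inside DPF1 was 82.0 to 123.0 tags.

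DPF3 held 3 regions inside its body, all more than 190 kb after the start. They had 167, 430 and 242 tags and fold enrichments of 4.10, 7.60 and 4.92, the last of them, near the far end, inside an overlapping stretch of RGS6. SS18 held a single one, of 671 bp (chr18:26057209-26057879), 33.6 kb after the first start. It had 464 tags and a fold enrichment of 12.3, the highest of the 14 regions inside the 10 genes away from starts, and above that at the SS18 start. ACTL6A, PHF10 and DPF2 had none inside the gene. The region at the far end of DPF2 (1282 tags, fold enrichment 12.0) lay 81 bp from an end of TIGD3.

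The ATPase genes had 12 and 6 regions. SMARCA2, at 178.3 kb with no other coding gene in its window, stood at percentile 88.7 for its length. Inside the gene it held 6 regions away from starts, with fold enrichments from 2.2 to 7.92 and 114 to 422 tags. The strongest of them by fold enrichment lay 128.0 kb after the first start, on the first-start side of the accessible internal starts. The region with the most tags in that window, 2118 at a fold enrichment of 9.38, was at the start of the noncoding LOC107987043, 226.3 kb from the first SMARCA2 start. SMARCA4 held 1 region inside its body, 75.1 kb after the start with 202 tags and a fold enrichment of 5.23. A region 24.2 kb before its start, outside coding genes, had 372 tags and a fold enrichment of 9.25.

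**Figure D5:**
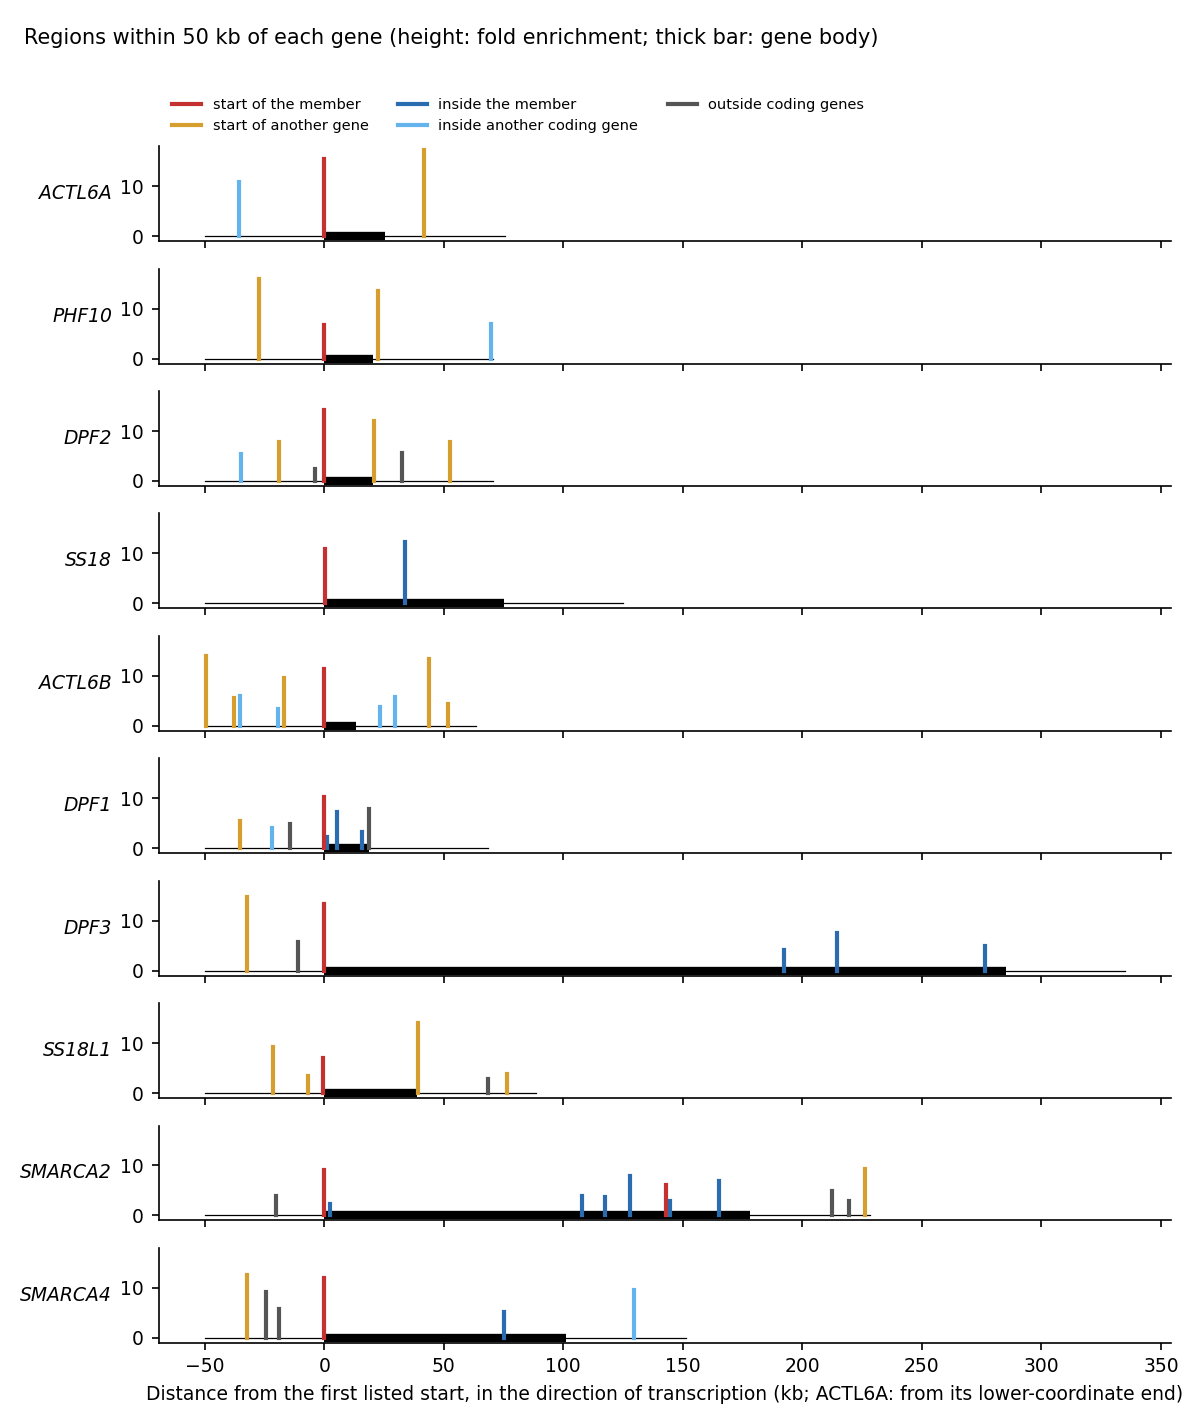
Regions in the 10 loci, with distance in kb from the first listed start (ACTL6A: its lower-coordinate end) on the horizontal axis and fold enrichment as the height of each line, coloured by position. The gene body is the thick bar and the 50 kb flanks are thin. Lines inside the bodies of DPF1, DPF3 and SMARCA2 contrast with the empty bodies of ACTL6A, PHF10, DPF2, ACTL6B and SS18L1.

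Of all 64 regions, 30 lay at a start (46.9%) and 34 did not. Over the whole list the share was 23.4%, but the list also covers sequence far from genes. These windows were all drawn around coding genes, so a higher share follows from the rule. Per locus, the 10 genes had a median of 6 regions and of 3.5 not at a start, against 5 and 2 over all coding genes. The 30 at a start had a median fold enrichment of 10.6 and 1173.5 tags, against 9.32 and 777 for regions at a start in the whole list. The others had 5.08 and 238.5, against 5.10 and 200 for the list. The 14 regions inside the genes ranged from 114 to 607 tags, below every one of the 10 main regions at the starts except that of ACTL6B, at 549.

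A list of other BAF subunit genes, outside the 10 described here, was accessible at a start throughout: 21 of 21 genes, against 68.4% of coding genes. For those with no listed start, either outer end was accepted, as for all such coding genes. The median fold enrichment of the 21 was 9.23 and their median tag count 1021, against 11.2 and 1290 for the 10. The highest were SMARCC1, a core scaffold subunit (14.7), SMARCD1, of the same core (13.9), and PBRM1, which defines the PBAF form (12.5). The lowest were BCL11B (4.61) and BCL11A (4.75), zinc-finger transcription factors found with neural BAF, and ARID1B (5.44), a DNA-binding subunit. ACTL6A, at 15.4, was above all 21, and PHF10 and SS18L1, at 6.63 and 6.94, were above 4 of them. The median number of regions per locus was 7 in this list, with a range of 2 (ARID2 and BRD7) to 25 (ARID1B, a gene of 434.8 kb).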

How the data were processed

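Chromatin accessibility was measured by ATAC-seq in 3 biological replicates at day 14, per the labels. The data are 1 peak list for all replicates, named in the labels as the optimal set by irreproducible discovery rate, on build hg38 per the submitters' processing notes. The aligner, the peak caller and their filters are not given in the sources used here. For each summit the authors deposited a linear fold ratio, −log10 p values and a score from 540 to 1000 of unstated scaling. The columns were identified by the usual order of this format, since there is no header. Tag counts were computed from the deposited ratio and p from the upper tail of a Poisson distribution, adding 1 to tags and background in the ratio, and every entry gave a whole number to within 0.00079 units of −log10 p. Replicate depth is unknown.

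Genes and starts came from RefSeq tables for GRCh38.p14. Of 20037 coding genes, 4195 have no listed start, and both outer ends were used for these. Percentiles and medians describe this list and carry no p-value. The members and lists were chosen with earlier results of these data known. Named genes were the 10 members, each with its regions at a start and its 3 highest elsewhere (1 of these is not reported here), other subunit genes by rank, and neighbours for location. ACTB, ARID2, BICRAL and BRD7 were named after their values were seen. Alternatives were other flanks, start windows, a score of at least 830, all entries, other strength measures and leaving out each gene. Python 3.11.15, numpy 2.4.6, scipy 1.17.1, pandas 2.3.3 and matplotlib 3.10.9 were used, and the code was tested on simulated data.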

Additional observations from a re-analysis of the deposited data

How the results depend on the processing

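No paired analysis was possible because 1 pooled list stands for all 3 replicates, none of which could therefore be left out. Of 176 recomputed values for 27 results, 136 stayed within the limit set for them (1.5 times, or 10 percentile points) and 40 moved. The difference per 100 kb of window was judged by sign alone. Counts and fold enrichments cannot change sign, and none of the differences and log2 ratios did. The tally is lenient: 40 values are fold enrichments at the starts that were the same at every setting. A log2 ratio of -0.01 counted as within the limit of -0.22. A region at the start was found for 10 of 10 genes at 500 bp, 2 kb and a score of at least 830. The shares of all coding genes at these settings were 63.8%, 71.7% and 66.9%. Of the members with a listed start, 9 of 9 had one, against 71.2% of such coding genes. Counting genes with a listed start alone, leaving out regions at any start, counting any summit at a start, and other windows for the other subunit genes were alternatives chosen after seeing the data. The other subunit genes with a region went from 21 to 18 at 500 bp, without ACTB, ARID2 and BICRAL. The share of all coding genes went from 68.4% to 63.8%. The total of 64 regions became 41 with flanks of 20 kb, 101 with 100 kb, 25 in gene bodies, 178 counting every entry and 41 keeping those above the median fold enrichment, as each admits more or less sequence or fewer entries. The neuronal minus progenitor difference in median regions per locus, 3.5, was 1 in gene bodies, 7.5 counting entries and 0 for regions above the list's median, 2.68 per 100 kb of window, and 2.5 to 4.5 without each gene in turn. The log2 ratio of strength at the start, -0.22, was -0.81 by −log10 p and -0.56 by tags. The median percentile of the 10 starts, 54.5 by fold enrichment, was 69.0 by −log10 p and 67.3 by tags, and the cause was not tested. Counting error alone was 4.27% at the weakest of the 10 starts and 1.95% at the strongest.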

Other observations

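Around several of these genes, regions at the starts of neighbours exceeded the member's own start region, though not always by both fold enrichment and tags. The highest fold enrichment of all 64, 17.3 with 1355 tags, was at the shared start of MRPL47 and NDUFB5, genes of the mitochondrial ribosome and of complex I, 41.8 kb from the lower-coordinate end of ACTL6A. The region at that end of ACTL6A had a lower fold enrichment, 15.4, but more tags, 2630. Around PHF10, the region shared by the starts of DYNLT2 and ERMARD had a fold enrichment of 15.9 and 1424 tags, and that of C6orf120 and WDR27 had 13.5 and 1212. Both exceeded the 6.63 and 685 at PHF10 itself. Around ACTL6B, regions at MOSPD3 (2148 tags), POP7 (1736) and GNB2 (1653) all had more tags than the 549 at ACTL6B. By fold enrichment MOSPD3 (13.3) and POP7 (14.1) were above the 11.4 at ACTL6B, and GNB2 (9.53) was below it. DCAF4 beside DPF3 had a fold enrichment of 14.7 and 1302 tags, against 13.4 and 1445 at the DPF3 start. MTG2 beside SS18L1 had 14.0 and 798, above the 6.94 and 695 at the SS18L1 start.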
